A study of Homo sapiens with 12 samples.

Results

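The 10 keratin genes KRT7, KRT8, KRT18, KRT19, KRT80, KRT81, KRT10, KRT15, KRT16 and KRT17 were followed through A549 cells with and without GFI1, attached or in suspension. They were taken by gene symbol from the 58735 genes of the count table, and 9 of the 10 were among the 17829 genes with enough counts to be tested. KRT17 was not tested. A549 is an established human lung adenocarcinoma line that grows attached to the dish, and GFI1 is a DNA-binding zinc-finger repressor known from blood cell formation. The study asked what GFI1 does to the attachment of cancer cells and to their survival without it. The 4 groups were A549 control cells collected attached, A549 cells expressing GFI1 collected attached, and the same 2 kinds of cells collected floating after 48 hours of forced suspension. Each group had 3 libraries, and all cells were grown in RPMI1640 medium with serum. GFI1 was delivered by a lentiviral vector that also marks cells with GFP, by which transduced cells were sorted. The sample labels name no vector for the controls, so if these were not transduced, GFI1 and transduction cannot be told apart. Nothing in the labels says that the 3 libraries of a group came from separate cultures, and p-values measure the spread between these libraries, which may be technical.

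Keratins are the intermediate filament proteins of epithelial cells. A filament is built from pairs of 1 type I and 1 type II chain, and an unpaired chain is degraded. KRT8 (type II) and KRT18 (type I) form the founding pair of simple epithelia such as the lung lining, where KRT7 (type II) and KRT19 (type I) join them. KRT80 is a type II keratin found near cell edges and junctions. The other members are not keratins of simple epithelium: KRT15, KRT16, KRT17 and KRT10 are type I keratins of stratified epithelia, found in basal, stressed or wounded, and suprabasal layers, and KRT81 is a type II keratin of the hair shaft. The genes are therefore called keratin genes here.

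The type II genes and KRT18 lie on chromosome 12 and the other type I genes on chromosome 17 (GRCh38, coordinates of the deposited table). On chromosome 12, KRT80 spans 52168996 to 52192000 and KRT7 spans 52232520 to 52252186, while KRT81 spans 52285913 to 52291534. KRT8, from 52897187 to 52949954 on the minus strand, overlaps the start of KRT18, from 52948871 to 52952901 on the plus strand. On chromosome 17, KRT10 spans 40818117 to 40822595, KRT15 spans 41513743 to 41522529, KRT19 spans 41523617 to 41528308, KRT16 spans 41609778 to 41615899 and KRT17 spans 41619441 to 41624842, all on the minus strand. KRT7 overlaps KRT86, KRT87P and KRT7-AS, KRT81 overlaps KRT86, KRT80 overlaps LINC00592 and KRT10 overlaps TMEM99. The strand setting of the counting is not given in the sources used here, and without strand the reads of overlapping genes cannot be told apart.

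KRT81 has near copies beside it, the hair keratin genes KRT86 and KRT83, so its counts depend on how the authors' counting treated shared reads. Of the 30-base windows of the KRT81 coding sequence, 55.7% occur unchanged in KRT86 and 24.6% in KRT83. The stretch below, in the first coding exon of the canonical GENCODE v44 transcripts, is shown because it tells the 3 genes apart. Capitals mark the bases that differ among them.

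KRT81: gcctgcgggccGcggccCGgccgctgctgc

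KRT83: gcctgcgggccCcggccAAgccgctgctgc

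KRT86: gcctgcgggccCcggccCGgccgctgctgc

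These are chr12:52291388-52291417 (minus strand) in KRT81, chr12:52321243-52321272 (minus strand) in KRT83 and chr12:52301965-52301994 (plus strand) in KRT86. Of all 100-base windows of the canonical transcripts, 30.3% were shared with another gene for KRT81, 7.12% for KRT8 and 7.12% for KRT16. The share was 0.353% for KRT17 and 0 for the other 6 keratin genes.

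RefSeq promoters, from 250 bases before to 50 bases after the start (GRCh38.p14), were matched for 2 of the 10 genes, KRT8 and KRT10. These 2 are shown because they were the only members matched, not for the direction of their changes. The letters searched on both strands were those of the TATA box (TATAAA), of an AP-1 site (TGACTCA), of the core of the GFI1 motif (AAATCA) and of an SP1 site (CCGCCC). KRT10 held the first of these, capitalised here, 29 bases before the start at chr17:40822626-40822655 on the minus strand.

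KRT10: accctctcagtaTATAAAggcttgtcactg

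KRT8 held TGATTT, the other strand of AAATCA, 8 bases before the start at chr12:52926460-52926489 on the minus strand. This RefSeq start lies inside the KRT8 span of the table.

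KRT8: gtgcctgatgcaTGATTTtcattcagcaaa

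Of 35116 RefSeq promoters, 11.5% held the TATA box letters and 13.2% the GFI1 letters on either strand, and 4.95% held those of AP-1 and 45% those of SP1. A match of letters is a description of the window only.

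The libraries held between 17014188 and 20748677 counts. GFI1 had 4 to 12 counts in the control libraries and 5154 to 12796 in the GFI1 libraries, as labelled. Among GFI1 cells, its level was higher in floating than in attached cells, by 0.95 ± 0.10 on the log2 scale (SE, adjusted p = 2.38e-08, edgeR). Comparisons that use floating GFI1 cells therefore carry this difference in GFI1 level, and its part in the keratin results was not tested. Within groups, the counts of 2 libraries differed by a chi-square per gene of 2.01 to 4.99, except for replicates 2 and 3 of the floating GFI1 group at 11.8. Without either of these, 8 or 9 of the 9 tested keratin genes passed the threshold for GFI1 in floating cells and 8 for suspension in GFI1 cells, against 8 and 8 with all libraries. Of the epithelial markers, KRT8, KRT18 and KRT7 had at least 8281 counts in each library. CDH1 fell with GFI1, from 120 ± 2.24 to 6.45 ± 0.671 CPM in attached cells and from 85.4 ± 3.54 to 3.99 ± 0.314 CPM in floating cells (SD, n = 3, where CPM are counts per 1000000 counts of a library after TMM scaling), and so fell by 4.22 ± 0.07 and fell by 4.42 ± 0.08 on the log2 scale (adjusted p = 3.23e-25 and 1.1e-24, edgeR). EPCAM, at 2.25 ± 0.451 and 1.97 ± 0.590 CPM in attached and floating control cells, also fell, by 1.91 ± 0.34 and 1.69 ± 0.35 (adjusted p = 2.95e-05 and 0.000184). Not all epithelial markers fell: CLDN4 rose by 0.43 ± 0.12 in attached cells (adjusted p = 0.00301), with 0.08 ± 0.11 in floating cells (adjusted p = 0.525). CLDN7 did not pass in attached or floating cells (adjusted p = 0.216 and 0.305). The alveolar list of 6 genes summed to 2.50 to 7.06 CPM. The endothelial list of 3 genes summed to 0.109 to 0.602 CPM in control libraries and to 3.55 to 5.52 CPM in GFI1 libraries, mostly CDH5. The basal list of 4 genes, mostly TP63, summed to 13.9 to 15.4 CPM in attached control and 27.4 to 30.1 CPM in floating control libraries, and to 1.49 to 2.55 CPM in GFI1 libraries. The fibroblast list of 4 genes summed to 5.41 to 14.1 CPM, and the blood list of 5 genes to 4.17 to 13.8 CPM, almost all of it CD14. PTPRC did not exceed 1 count in any library, and CD3E and DCN were at 0. The part of these markers in the keratin results was not tested. In such libraries, fewer cells of a kind and less RNA per cell cannot be told apart.

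In attached cells, GFI1 went with lower KRT8, KRT18, KRT81 and KRT7 and with higher KRT15, KRT16 and KRT19. KRT18 fell most, by 4.03-fold, and KRT16 rose most, by 18.9-fold from a very low level. KRT16 passed the filter for testing only through its GFI1 libraries. KRT10 and KRT80 did not pass the test. Of the 9 tested genes, 3 rose and 4 fell (edgeR quasi-likelihood F test, calls at an adjusted p up to 0.05), where 62.3% of all tested genes passed, 29.5% rising and 32.8% falling. In floating cells the same 4 genes fell, and KRT15, KRT16, KRT10 and KRT80 rose, while KRT19 did not pass. There, 4 rose and 4 fell, beside 60.4% of all genes, 29.3% rising and 31.1% falling. Most genes passed in either comparison, so the number of keratin genes that passed is not particular to them.

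Suspension in control cells went with lower KRT80, KRT7, KRT8, KRT18 and KRT81 and with higher KRT15. KRT80 fell by 4.49-fold, further than 99.3% of all tested genes moved in either direction. In GFI1 cells the same 5 genes fell and 3 rose, KRT15, KRT10 and KRT16. In control cells 1 rose and 5 fell where 40.1% of all genes passed (19.6% rising, 20.5% falling), and in GFI1 cells 3 rose and 5 fell where 31.3% passed (15% rising, 16.3% falling). The comparisons share groups, so their values are given side by side and are not independent of each other.

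**Figure D1:**
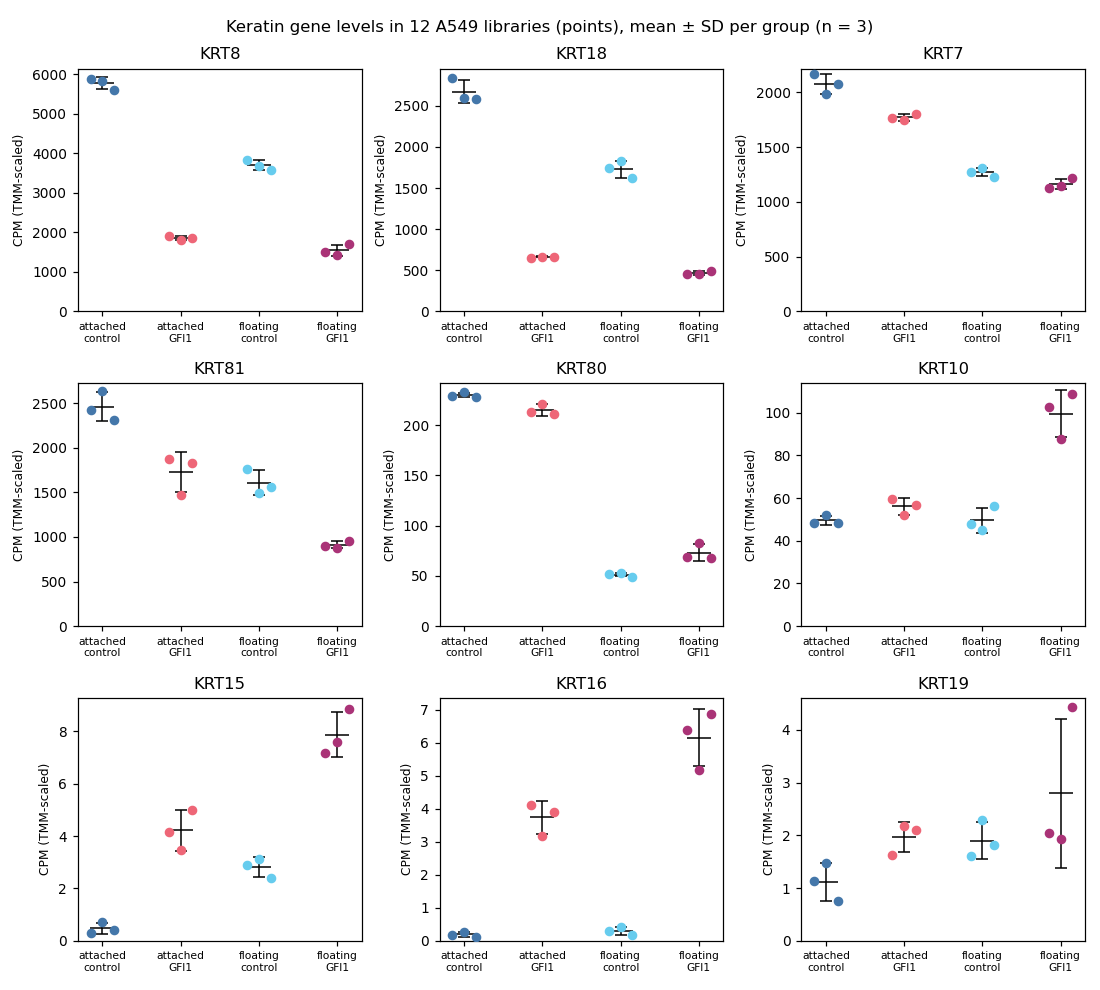
Levels of the 9 tested keratin genes in TMM-scaled CPM (linear axes from 0) in each of the 12 libraries, with the mean ± SD of the 3 libraries per group. KRT8 and KRT18 are highest in attached control cells and lowest in floating GFI1 cells, KRT80 is low in both floating groups, and KRT15 and KRT16 are highest in floating GFI1 cells.

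KRT8, the type II chain of the founding pair, measured 5868, 5841 and 5598 CPM in the attached control libraries and 1899, 1804 and 1856 CPM in the attached GFI1 libraries. It measured 3827, 3691 and 3588 CPM in floating control cells and 1505, 1431 and 1698 CPM in floating GFI1 cells. No 2 groups overlapped, and the order from high to low was attached control, floating control, attached GFI1, floating GFI1. Groups without overlap were found for 67% of all tested genes for GFI1 in attached cells, 64.4% in floating cells, 49.9% for suspension in control cells and 41.4% in GFI1 cells. With GFI1, KRT8 fell by 1.64 ± 0.05 on the log2 scale in attached cells (SE, adjusted p = 2.11e-19, edgeR) and by 1.26 ± 0.05 in floating cells (adjusted p = 4.17e-17). With suspension, it fell by 0.64 ± 0.05 in control cells (adjusted p = 1.41e-10) and by 0.26 ± 0.05 in GFI1 cells (adjusted p = 0.000202). The 2 suspension effects differed by 0.38 ± 0.07 (interaction, adjusted p = 0.000611), so the fall was smaller in GFI1 cells. The interaction passed for 10.8% of all genes, 4.76% upward and 6.01% downward, and for 5 of the 9 keratin genes, 3 upward and 2 downward. The 50 pseudogenes named after KRT8 held 0.544% of the counts of KRT8 and these copies.

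KRT18, its type I partner, measured 2832, 2596 and 2583 CPM in attached control cells and 655, 665 and 667 CPM in attached GFI1 cells. In floating cells it measured 1739, 1827 and 1621 CPM without GFI1 and 457, 457 and 489 CPM with it. The groups stood in the same order as for KRT8, again without overlap. KRT18 fell by 2.01 ± 0.05 with GFI1 in attached cells (adjusted p = 1.31e-21, edgeR) and by 1.89 ± 0.05 in floating cells (adjusted p = 5.39e-21). It fell by 0.63 ± 0.05 with suspension in control cells (adjusted p = 7.48e-11) and by 0.50 ± 0.05 in GFI1 cells (adjusted p = 9.72e-09). The difference between the suspension effects was 0.12, with a 95% interval from -0.01 to 0.26 (adjusted p = 0.282), so a difference was not shown.

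KRT8 thus had more counts per KRT18 count in GFI1 cells. The ratio was 2.16 ± 0.0888 in attached control cells (SD, n = 3) and 2.14 ± 0.107 in floating control cells, against 2.80 ± 0.0935 in attached GFI1 cells and 3.30 ± 0.170 in floating GFI1 cells. The highest control library, at 2.25, lay below the lowest GFI1 library, at 2.71. Per kilobase of the deposited gene lengths the ratios were 1.01, 1.00, 1.31 and 1.54 in the same order of groups. With canonical transcript lengths, they were 1.71, 1.70, 2.22 and 2.61, so the level of the ratio, but not the order of the GFI1 groups above the controls, depended on the length used. The ratio was given no test.

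**Figure D2:**
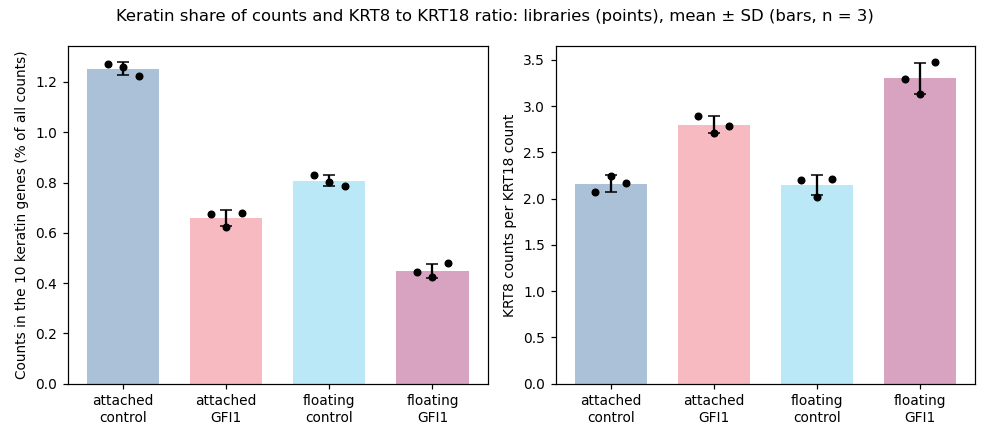
Share of all counts that fell in the 10 keratin genes (left, percent) and KRT8 counts per KRT18 count (right), as mean ± SD bars over 3 libraries per group with the libraries as points. The keratin share is lower in GFI1 than in control cells and lower in floating than in attached cells, whereas the ratio is higher in both GFI1 groups.

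KRT7, a type II keratin of glandular and lung epithelia, moved less with GFI1 than with suspension. It measured 2164, 1987 and 2079 CPM in attached control, 1764, 1744 and 1806 CPM in attached GFI1, 1277, 1311 and 1232 CPM in floating control and 1131, 1145 and 1215 CPM in floating GFI1 cells. The 4 groups did not overlap. With GFI1 it fell by 0.23 ± 0.04 in attached cells (adjusted p = 5.44e-05, edgeR) and by 0.13 ± 0.04 in floating cells (adjusted p = 0.0117). These falls depended on the scaling: with library size only they were -0.08 (adjusted p = 0.0902) and 0.00 (adjusted p = 0.991), and the floating value also missed the threshold with upper quartile scaling (adjusted p = 0.0861), without floating control replicate 2 (adjusted p = 0.057) and without floating GFI1 replicate 1 (adjusted p = 0.0892). With suspension KRT7 fell by 0.71 ± 0.04 in control cells (adjusted p = 1.8e-12) and by 0.61 ± 0.04 in GFI1 cells (adjusted p = 6.81e-11). The 2 suspension effects differed by 0.10, with a 95% interval from -0.03 to 0.22 (adjusted p = 0.361). KRT7-AS, which overlaps KRT7 on the other strand, changed by 0.10 ± 0.07 with GFI1 in attached cells (adjusted p = 0.203) and rose by 0.24 ± 0.07 in floating cells (adjusted p = 0.00639). With suspension KRT7-AS fell like KRT7, by 0.73 ± 0.07 without GFI1 (adjusted p = 6.7e-09). In GFI1 cells that fall was 0.58 ± 0.07 (adjusted p = 2.08e-07). KRT87P, also overlapping, fell with suspension by 0.76 ± 0.26 in control cells (adjusted p = 0.0207). Its fall in GFI1 cells was 1.55 ± 0.27 (adjusted p = 8.77e-05). The GFI1 values of KRT87P were -0.04 ± 0.24 when attached (adjusted p = 0.9) and -0.82 ± 0.29 when floating (adjusted p = 0.0177). Sharing of reads was not tested.

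KRT81, the hair keratin, fell in all 4 pairwise comparisons. It measured 2427, 2637 and 2316 CPM in attached control and 1877, 1472 and 1832 CPM in attached GFI1 cells. It measured 1765, 1498 and 1564 CPM in floating control and 904, 877 and 957 CPM in floating GFI1 cells. Attached GFI1 and floating control cells overlapped, and all other pairs of groups were apart. KRT81 fell by 0.51 ± 0.07 with GFI1 in attached cells (adjusted p = 6.63e-07, edgeR) and by 0.82 ± 0.07 in floating cells (adjusted p = 2.21e-10). With suspension it fell by 0.61 ± 0.07 in control cells (adjusted p = 1.04e-07) and by 0.92 ± 0.07 in GFI1 cells (adjusted p = 2.54e-10). The interaction of -0.31 ± 0.10 had an adjusted p of 0.0468 and missed the threshold with DESeq2 (adjusted p = 0.154), with robust empirical Bayes (adjusted p = 0.248) and without any one of 7 single libraries, where it ran from -0.234 to -0.325. These were attached control replicates 1 and 3, attached GFI1 replicates 1 and 3, floating control replicates 1 and 3 and floating GFI1 replicate 1.

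The near copies KRT86 and KRT83 together held 3.19% of the counts of the 3 genes. KRT86 measured 75.7 ± 11.8 CPM in attached control, 60.3 ± 3.38 in attached GFI1, 51.4 ± 6.68 in floating control and 28.7 ± 4.04 in floating GFI1 cells (SD, n = 3). KRT86 fell in all 4 pairwise comparisons, by 0.33 ± 0.09 and 0.84 ± 0.10 with GFI1 in attached and floating cells (adjusted p = 0.00333 and 1.33e-07, edgeR) and by 0.56 ± 0.10 and 1.06 ± 0.10 with suspension in control and GFI1 cells (adjusted p = 3.46e-05 and 9.07e-09). KRT86 had an interaction of -0.51 ± 0.14 (adjusted p = 0.0178), which missed the threshold with DESeq2 (adjusted p = 0.0828), with robust empirical Bayes (adjusted p = 0.192) and without attached control replicate 2 or floating control replicate 2 or 3 (adjusted p = 0.0605, 0.064 and 0.0615). With the counts of KRT81, KRT83 and KRT86 added up, the KRT81 changes were -0.51, -0.82, -0.61 and -0.92 in the same order.

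KRT80 stood out for suspension. It measured 229, 233 and 228 CPM in attached control and 213, 222 and 211 CPM in attached GFI1 cells, but 51.7, 52.7 and 49.2 CPM in floating control and 68.7, 82.5 and 68.2 CPM in floating GFI1 cells. All floating libraries lay below all attached libraries. It fell by 2.17 ± 0.06 with suspension in control cells (adjusted p = 1.33e-19, edgeR) and by 1.56 ± 0.05 in GFI1 cells (adjusted p = 1.27e-16), and the fall was smaller in GFI1 cells by 0.61 ± 0.08 (adjusted p = 6.28e-06). GFI1 cells had 0.51 ± 0.06 more KRT80 than controls in suspension (adjusted p = 4.27e-08). In attached cells the GFI1 value was -0.10 ± 0.05 (adjusted p = 0.106), and it was 0.05 with library size only, so no direction is given there.

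**Figure D3:**
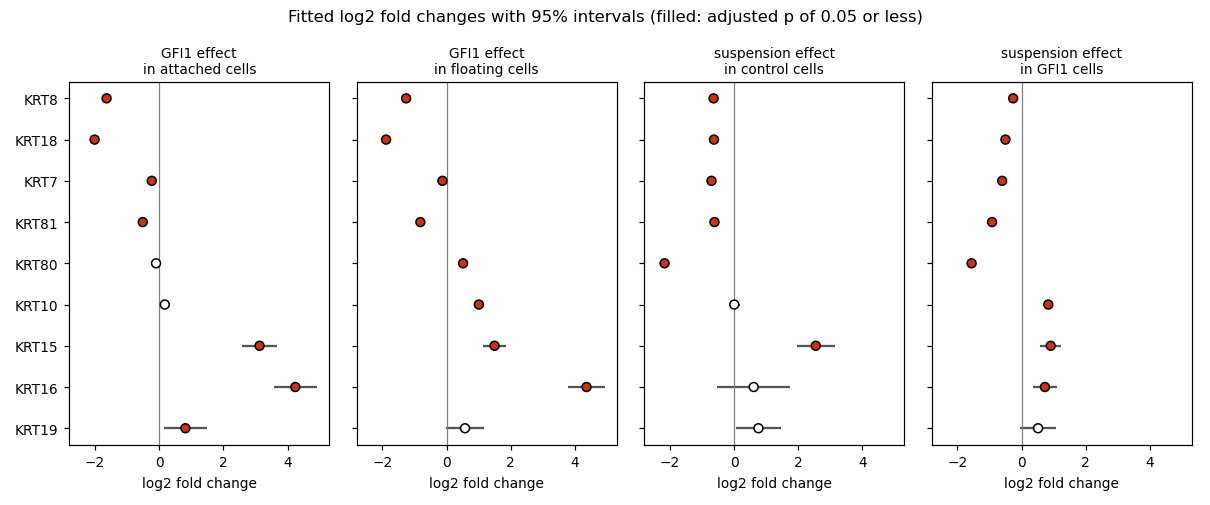
Fitted log2 fold changes of the 9 tested keratin genes with 95% intervals, in 4 panels for GFI1 over control (attached, floating) and floating over attached (control, GFI1). Filled points passed an adjusted p of 0.05. KRT8 and KRT18 are farthest left for GFI1, KRT80 is farthest left for suspension, and KRT15 and KRT16 lie to the right in each panel, with KRT16 not passing for suspension in control cells.

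KRT10, the keratin of suprabasal epidermis, changed with GFI1 in suspension. It measured 48.2, 52.2 and 48.2 CPM in attached control, 59.6, 51.9 and 56.7 CPM in attached GFI1 and 47.8, 45.03 and 56.1 CPM in floating control cells, which all overlapped. In floating GFI1 cells it measured 103, 87.5 and 109 CPM, above every other library. KRT10 rose by 1.00 ± 0.07 with GFI1 in floating cells (adjusted p = 1.2e-11, edgeR) and by 0.83 ± 0.07 with suspension in GFI1 cells (adjusted p = 2.25e-09). In control cells the suspension value was 0.00, with a 95% interval from -0.16 to 0.17 (adjusted p = 0.972), and the interaction was 0.83 ± 0.11 (adjusted p = 7.14e-06). In attached cells the GFI1 value of 0.18 ± 0.08 lay at the threshold (adjusted p = 0.0502). It passed under DESeq2 (adjusted p = 0.0465), RLE size factors (adjusted p = 0.0402) and other alternatives. TMEM99, which overlaps KRT10 on the other strand, moved the other way in floating cells, by -0.25 ± 0.11 with GFI1 (adjusted p = 0.0428). In attached cells the TMEM99 value with GFI1 was 0.20 ± 0.11 (adjusted p = 0.11), in the direction of KRT10. With suspension TMEM99 rose by 0.33 ± 0.11 in control cells (adjusted p = 0.0166), with -0.12 ± 0.10 in GFI1 cells (adjusted p = 0.42).

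KRT15, a keratin of basal cells, had 5, 13 and 7 counts in attached control libraries and 74, 75 and 100 in attached GFI1 libraries. It had 49, 52 and 42 counts in floating control and 130, 138 and 178 in floating GFI1 libraries. As CPM the group means were 0.468 ± 0.212, 4.21 ± 0.774, 2.80 ± 0.385 and 7.88 ± 0.873 in that order (SD, n = 3), and no groups overlapped. KRT15 rose by 3.13 ± 0.27 with GFI1 in attached cells (adjusted p = 1.47e-10, edgeR) and by 1.49 ± 0.18 in floating cells (adjusted p = 6.09e-08). It rose by 2.54 ± 0.29 with suspension in control cells (adjusted p = 8.79e-08) and by 0.91 ± 0.16 in GFI1 cells (adjusted p = 9.69e-05). The interaction was -1.64 ± 0.35 (adjusted p = 0.00216), so the suspension rise was smaller in GFI1 cells on the log2 scale. In CPM the step was larger in GFI1 cells, from 4.21 to 7.88, than in control cells, from 0.468 to 2.80. From the summed counts, GFI1 cells had 8.83 times as much KRT15 when attached (25 against 249 counts, 95% interval 5.84 to 13.9, counting error only).

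KRT16, a keratin of stressed and wounded epidermis, had 3, 5 and 2 counts in attached control and 5, 7 and 3 counts in floating control libraries. GFI1 libraries held 73, 69 and 78 counts when attached and 116, 94 and 138 when floating, all above every control library. KRT16 rose by 4.24 ± 0.32 with GFI1 in attached cells (adjusted p = 1.77e-11, edgeR) and by 4.36 ± 0.28 in floating cells (adjusted p = 6.02e-13). No control library reached the minimum count of 10, so KRT16 passed the filter for testing only through its GFI1 libraries. Its rise with GFI1 is therefore not independent of the filter. The ratio of the summed counts, scaled to the libraries, was 19.5 in attached cells (10 against 220 counts, 95% interval 10.4 to 41.2) and 21.0 in floating cells (15 against 348 counts, 95% interval 12.6 to 38.0). KRT16 rose by 0.73 ± 0.18 with suspension in GFI1 cells (adjusted p = 0.00224). In control cells the value was 0.61 ± 0.55 (adjusted p = 0.419), and the interaction of 0.12 had a 95% interval from -1.32 to 1.55 (adjusted p = 0.95), too wide to say whether the suspension effects differed. Copies of KRT16 held 8.06% of the counts of KRT16 and its copies.

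KRT19, the type I keratin that lacks a tail domain, had few counts, with 19, 27 and 13 counts in attached control, 29, 47 and 42 in attached GFI1 and 27, 38 and 32 in floating control libraries. Floating GFI1 libraries held 37, 35 and 89 counts, the highest value standing in replicate 3. KRT19 rose by 0.82 ± 0.32 with GFI1 in attached cells (adjusted p = 0.0314, edgeR), and this was lost without attached control replicate 1 or 3 or attached GFI1 replicate 2 or 3 (adjusted p = 0.0671, 0.155, 0.0912 and 0.0763). The value in floating cells was 0.57 ± 0.29 (adjusted p = 0.0868), and 0.06 without floating GFI1 replicate 3. It passed without floating GFI1 replicate 1 (adjusted p = 0.0344) or 2 (adjusted p = 0.0165). Suspension gave 0.76 ± 0.33 in control cells (adjusted p = 0.074) and 0.51 ± 0.28 in GFI1 cells (adjusted p = 0.173). The control value passed with no low-count filter (adjusted p = 0.0401), with the 2 groups alone (adjusted p = 0.0268) and without attached control replicate 2 (adjusted p = 0.0473) or floating GFI1 replicate 2 or 3 (adjusted p = 0.0453 and 0.027), and the GFI1 value fell to 0.00 without floating GFI1 replicate 3.

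KRT17, a keratin of hair follicles and wounded skin, had at most 3 counts in any library and 10 counts in all 12, so no difference was detectable at this depth. Its copies held 79 counts.

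The keratin genes together took 1.25% ± 0.0254 of all counts in attached control cells (SD, n = 3), 0.659% ± 0.0308 in attached GFI1, 0.807% ± 0.0225 in floating control and 0.449% ± 0.0273 in floating GFI1 cells. The groups did not overlap. As counts, not adjusted for gene length, KRT8 gave 43.5% of the summed keratin CPM in attached control cells and 43.97% in floating control cells, but 29.4% and 36.1% in attached and floating GFI1 cells. KRT7 gave 15.7% in attached control and 28.1% in attached GFI1 cells, as KRT18 went from 20.1% to 10.5%.

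Levels of different genes were compared per kilobase. By the deposited gene lengths, KRT81 stood first in every group, at 1275 CPM per kilobase in attached control cells, ahead of KRT8 at 838 and KRT18 at 829.9 CPM per kilobase, a gap smaller than the SD of KRT18 of 43.4. By canonical transcript lengths, KRT8 stood first in attached control (3234 CPM per kilobase), floating control and floating GFI1 cells, and KRT7 stood first in attached GFI1 cells, at 1090.2 against 1039 for KRT8. The order of these 4 genes therefore depended on the length. KRT80 and KRT10 took places 5 and 6 with either length, KRT80 ahead in attached and KRT10 ahead in floating cells. The summed type II genes stood at 3.14 ± 0.166 times the summed type I genes per kilobase in attached control cells, 3.02 ± 0.207 times in floating control, 7.01 ± 0.505 times in attached GFI1 and 5.08 ± 0.0582 times in floating GFI1 cells. With canonical lengths these were 3.06, 2.97, 6.15 and 5.35 times.

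Of 45 other keratin genes in the table, 8 had enough counts to be tested: KRT4, KRT12, KRT20, KRT23, KRT39, KRT40, KRT83 and KRT86. With GFI1 in attached cells, 2 rose and 4 fell, with a median of -0.21 on the log2 scale beside -0.01 over all genes. In floating cells 2 rose and 3 fell, with medians of 0.10 and 0.01. KRT4, a type II keratin of the lining of the mouth and oesophagus, measured 23.5 ± 1.73 CPM in attached control and 8.42 ± 0.506 CPM in floating control cells but 0.166 ± 0.248 and 0.0717 ± 0.0335 CPM in the GFI1 groups. It fell with GFI1 in attached cells (adjusted p = 4.65e-18, edgeR), where the GFI1 libraries held 0 to 8 counts. The fitted change there was -7.21 ± 0.26 with all libraries and -9.58 without attached GFI1 replicate 1, so its size is not well determined. In floating cells KRT4 was at least 52.6-fold lower with GFI1, where each library had 2 counts or fewer and the bound was set at 3 counts per library. KRT4 passed the filter for testing only through its control libraries, so its fall is not independent of the filter. KRT40, a hair keratin, rose by 1.95 ± 0.30 in attached cells (adjusted p = 3.29e-06) and by 1.80 ± 0.23 in floating cells (adjusted p = 2.64e-07), and KRT23 rose by 1.63 ± 0.41 and 0.82 ± 0.34 (adjusted p = 0.00132 and 0.04). KRT83 fell by 1.23 ± 0.33 and 1.21 ± 0.35 (adjusted p = 0.00198 and 0.00456).

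With suspension, 4 of the 8 rose and 2 fell in control cells (median 0.88 beside 0.01 over all genes), and 4 rose and 1 fell in GFI1 cells (median 0.74 beside 0.00). KRT20, a keratin of intestinal epithelium, rose from 1.503 ± 0.233 to 4.93 ± 0.946 CPM in control cells (1.71 ± 0.22, adjusted p = 5.68e-07, edgeR) and from 0.875 ± 0.268 to 4.18 ± 0.581 CPM in GFI1 cells (2.23 ± 0.24, adjusted p = 5.44e-08). KRT39 rose by 1.34 ± 0.38 and 1.08 ± 0.32 (adjusted p = 0.00649 and 0.0113). KRT12 rose by 1.08 ± 0.30 in GFI1 cells (adjusted p = 0.00774), with 0.57 ± 0.33 in control cells (adjusted p = 0.176). KRT4 fell by 1.48 ± 0.14 with suspension in control cells (adjusted p = 2.52e-09).

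Keratin filaments are anchored at desmosomes between cells and at hemidesmosomes to the matrix, through plakin proteins. Of 23 genes of these junctions, 18 were tested, and with GFI1 7 rose and 10 fell in attached cells (median -0.22 beside -0.01 over all genes) and 7 rose and 10 fell in floating cells (median -0.34 beside 0.01). The desmosomal cadherins DSC2, DSC3 and DSG2 fell. DSC2 went from 4.68 ± 0.295 to 0.605 ± 0.387 CPM in attached cells (-2.93 ± 0.30, adjusted p = 3.48e-09, edgeR, and -3.60 without attached GFI1 replicate 3) and by -2.81 ± 0.27 in floating cells (adjusted p = 2.01e-09). DSG2 fell by 1.06 ± 0.05 and 1.18 ± 0.05 (adjusted p = 4.58e-16 and 5.01e-17), and DSC3 by 1.43 ± 0.18 and 1.97 ± 0.18 (adjusted p = 2.3e-07 and 5.04e-10). PERP, a desmosomal membrane protein, fell from 297 ± 12.7 to 93.9 ± 2.80 CPM in attached cells (-1.66 ± 0.04, adjusted p = 7.14e-21) and by -1.84 ± 0.04 in floating cells (adjusted p = 5.76e-22).

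The linker proteins moved both ways. JUP (plakoglobin), which links desmosomal cadherins to desmoplakin, rose from 189 ± 5.85 to 504 ± 8.43 CPM in attached cells (1.41 ± 0.05, adjusted p = 5.15e-19, edgeR) and by 0.96 ± 0.05 in floating cells (adjusted p = 1.13e-15). PPL (periplakin) rose from 32.8 ± 4.91 to 166 ± 5.88 CPM in attached cells (2.34 ± 0.08, adjusted p = 2.03e-18) and by 1.85 ± 0.08 in floating cells (adjusted p = 8.1e-17). DSP (desmoplakin), which binds keratin, fell by 0.70 ± 0.06 and 0.42 ± 0.05 (adjusted p = 4.04e-11 and 2.27e-07), EVPL (envoplakin) by 0.26 ± 0.05 and 0.75 ± 0.05 (adjusted p = 0.000148 and 3.74e-12), and PKP2, a plakophilin, by 0.83 ± 0.14 and 0.41 ± 0.16 (adjusted p = 2.13e-05 and 0.0295). PLEC (plectin) rose by 0.50 ± 0.04 and 0.49 ± 0.04 (adjusted p = 3.76e-10 and 4.79e-10). DST, a plakin gene, rose by 0.61 ± 0.05 and 0.87 ± 0.05 (adjusted p = 3.69e-10 and 3.36e-13). Of other plakophilins, PKP4 rose by 0.24 ± 0.05 and 0.38 ± 0.05 (adjusted p = 0.000126 and 4.51e-07), and PKP3 fell by 0.18 ± 0.05 and 0.27 ± 0.05 (adjusted p = 0.00383 and 7.52e-05). EVPL, PKP2, PKP3, DST, and the GFI1 values of DSP, PLEC, PKP4 and ITGB4, were added after their values were seen. Of the hemidesmosome genes, ITGB4 rose by 0.73 ± 0.10 in attached cells (adjusted p = 4.56e-07), with 0.03 ± 0.09 in floating cells (adjusted p = 0.796). ITGA6 fell by 1.93 ± 0.07 and 2.07 ± 0.06 (adjusted p = 1.19e-18 and 1.96e-19) and COL17A1 by 2.00 ± 0.25 and 3.24 ± 0.21 (adjusted p = 1.07e-07 and 9.62e-13). COL17A1 had 2.90 ± 0.269 and 7.93 ± 0.619 CPM in the control groups.

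**Figure D4:**
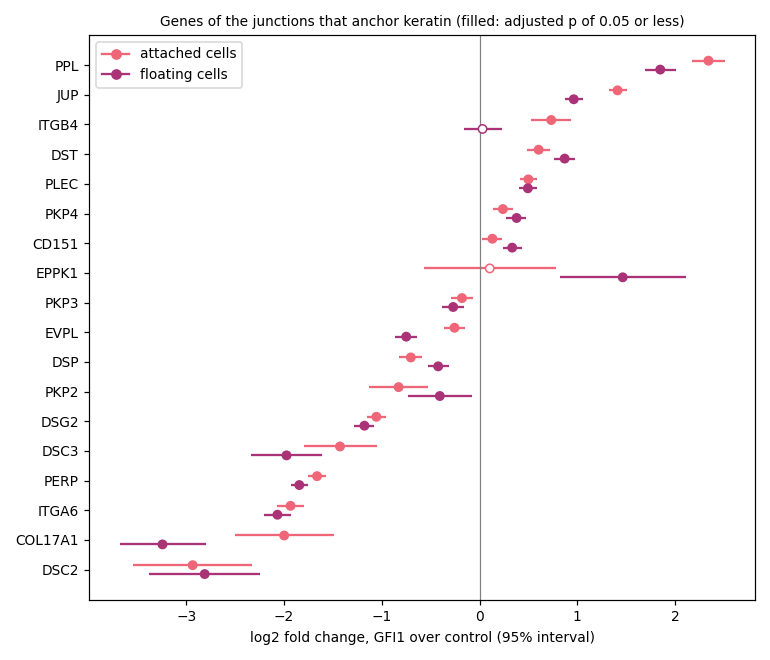
Log2 fold changes with GFI1 of the 18 tested genes of desmosomes, hemidesmosomes and plakins, with 95% intervals, in attached (lighter) and floating (darker) cells, where filled points passed an adjusted p of 0.05. Genes are ordered by the change in attached cells, from PPL and JUP at the top to COL17A1 and DSC2 at the bottom, and 7 rose and 10 fell in either kind of cells.

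With suspension, 9 of the 18 junction genes rose and 4 fell in control cells (median 0.31 beside 0.01 over all genes), and 7 rose and 4 fell in GFI1 cells (median 0.07 beside 0.00). In control cells PERP rose by 0.66 ± 0.04 (adjusted p = 3.12e-12, edgeR), ITGB4 by 1.21 ± 0.10 (adjusted p = 2.71e-10) and COL17A1 by 1.45 ± 0.17 (adjusted p = 2.33e-07), while PKP4 fell by 0.42 ± 0.05 (adjusted p = 2.73e-07). In GFI1 cells DSP rose by 0.74 ± 0.06 (adjusted p = 1.47e-10) and PLEC, the plectin that crosslinks intermediate filaments, fell by 0.30 ± 0.04 (adjusted p = 7.16e-06). In control cells DSP also rose, by 0.46 ± 0.05 (adjusted p = 1.42e-07), and PLEC fell by 0.30 ± 0.04 (adjusted p = 5.7e-06). PERP (0.47 ± 0.04), ITGB4 (0.51 ± 0.10) and PKP4 (-0.28 ± 0.05) passed in GFI1 cells too, in the same directions. COL17A1 did not pass there (0.20 ± 0.31, adjusted p = 0.674).

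Of 14 other intermediate filament genes, 11 were tested, and 5 rose and 3 fell with GFI1 in attached cells (median -0.04 beside -0.01) and likewise 5 and 3 in floating cells (median 0.16 beside 0.01). VIM (vimentin), the filament of mesenchymal cells, which A549 also expresses, fell from 426 ± 20.7 to 50.004 ± 3.48 CPM in attached cells (-3.09 ± 0.11, adjusted p = 3.69e-18, edgeR) and from 439 ± 11.8 to 97.8 ± 27.5 CPM in floating cells (-2.17 ± 0.10, adjusted p = 1.88e-15). NES (nestin) rose by 1.29 ± 0.14 and 1.40 ± 0.16 (adjusted p = 2.21e-08 and 2.11e-08), and NEFL, a neurofilament gene, rose by 1.18 ± 0.10 in attached cells (adjusted p = 1.33e-10). NEFL also rose in floating cells, by 0.33 ± 0.08 (adjusted p = 0.000932). LMNA, the lamin A/C gene, rose by 0.45 ± 0.04 in attached cells (adjusted p = 3.72e-10) and by 0.66 ± 0.04 in floating cells (adjusted p = 2.93e-13). With suspension, 1 rose and 4 fell in control cells (median -0.18 beside 0.01) and 3 rose and 4 fell in GFI1 cells (median -0.18 beside 0.00). NEFL rose by 1.55 ± 0.10 (adjusted p = 2.8e-12) and LMNB2, a nuclear lamin, fell by 0.77 ± 0.05 (adjusted p = 1.15e-11) in control cells. In GFI1 cells VIM rose by 0.97 ± 0.11 (adjusted p = 2.21e-07) and LMNB1 fell by 0.70 ± 0.05 (adjusted p = 5.43e-11). LMNB2 fell there too, by 0.61 ± 0.05 (adjusted p = 2.77e-09), and NEFL rose by 0.71 ± 0.08 (adjusted p = 2.27e-07). In control cells LMNB1 fell by 0.67 ± 0.05 (adjusted p = 1.2e-11), and VIM did not pass (0.04 ± 0.10, adjusted p = 0.77).

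Of 16 regulators of epithelial identity, 12 were tested, all of them transcription factors. With GFI1, 3 rose and 8 fell in attached cells (median -0.58 beside -0.01) and 4 rose and 7 fell in floating cells (median -0.70 beside 0.01). EHF, an epithelial ETS factor, fell from 57.6 ± 3.77 to 4.86 ± 0.635 CPM in attached cells (-3.56 ± 0.11, adjusted p = 2.27e-19, edgeR) and by -4.02 ± 0.11 in floating cells (adjusted p = 1.75e-20). TP63, the p63 factor of basal cells, fell by 2.89 ± 0.14 in attached cells and fell by 3.89 ± 0.13 in floating cells (adjusted p = 1.09e-15 and 6.38e-19), and KLF4 by 1.83 ± 0.10 and 1.48 ± 0.09 (adjusted p = 2.08e-14 and 4.16e-13). SOX2 fell by 0.74 ± 0.08 and 1.46 ± 0.09 (adjusted p = 2.81e-08 and 1.35e-13), and FOXA1 rose by 0.86 ± 0.09 and 0.74 ± 0.09 (adjusted p = 7.22e-09 and 9.66e-08). The basal keratins KRT5 and KRT14 did not exceed 11 counts and 1 count in any library. With suspension, 7 factors rose and 1 fell in control cells (median 0.33 beside 0.01), with TP63 up by 0.99 ± 0.09 (adjusted p = 4.74e-09), KLF5 up by 0.61 ± 0.04 (adjusted p = 2.24e-11) and GRHL1 down by 0.87 ± 0.31 (adjusted p = 0.0274). The GRHL1 value missed the threshold without attached control replicate 2 (adjusted p = 0.227) or floating control replicate 2 or 3 (adjusted p = 0.0962 and 0.0782). In GFI1 cells 5 rose and 1 fell (median 0.17 beside 0.00), with SOX9 up by 0.71 ± 0.06 (adjusted p = 2.75e-09) and SOX2 down by 0.48 ± 0.09 (adjusted p = 0.000225). KLF5 rose there too, by 0.48 ± 0.04 (adjusted p = 4.64e-09), while TP63 (adjusted p = 0.992) and GRHL1 (adjusted p = 0.795) did not pass. In control cells SOX2 rose by 0.25 ± 0.08 (adjusted p = 0.0149), and SOX9 did not pass (0.11 ± 0.06, adjusted p = 0.191).

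Of 21 genes of cornified and squamous differentiation, the setting of KRT10 and KRT16 in skin, only 6 were tested. With GFI1, 3 rose and 1 fell in attached cells (median 0.56 beside -0.01) and 2 rose and 1 fell in floating cells (median 0.46 beside 0.01). SFN, the 14-3-3 sigma gene, fell from 95.6 ± 4.49 to 21.5 ± 1.43 CPM in attached cells (-2.15 ± 0.06, adjusted p = 8.36e-21, edgeR) and by -2.17 ± 0.06 in floating cells (adjusted p = 3.29e-20). CNFN (cornifelin) rose by 0.91 ± 0.14 (adjusted p = 3.08e-06) and TGM3, a transglutaminase, by 1.76 ± 0.30 (adjusted p = 1.43e-05) in attached cells, and S100A2 rose by 1.31 ± 0.19 in floating cells (adjusted p = 2.03e-06). CNFN also rose in floating cells, by 0.48 ± 0.14 (adjusted p = 0.00438), where TGM3 did not pass (0.44 ± 0.23, adjusted p = 0.0995). S100A2 did not pass in attached cells (0.21 ± 0.19, adjusted p = 0.346). With suspension, 2 rose and 2 fell in control cells (median 0.13 beside 0.01) and 2 rose and 1 fell in GFI1 cells (median 0.42 beside 0.00). TGM3 rose by 1.86 ± 0.30 (adjusted p = 1.71e-05) and SFN fell by 0.46 ± 0.05 (adjusted p = 7.46e-08) in control cells. SFN also fell by 0.47 ± 0.07 in GFI1 cells (adjusted p = 7.58e-06). S100A9 rose by 1.55 ± 0.50 in GFI1 cells (adjusted p = 0.0196), which was lost without attached GFI1 replicate 1 (adjusted p = 0.097) or floating GFI1 replicate 2 (adjusted p = 0.336). In control cells S100A9 also rose with suspension, at least 3.76-fold (adjusted p = 0.000639). Attached control libraries had 1 count or fewer there, and the bound was set at 3 counts per library. Attached GFI1 libraries had at most 9 counts, so S100A9 passed the filter for testing only through floating libraries. The S100A9 interaction did not pass (adjusted p = 0.208).

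The genes most like each of 8 keratins over the 12 libraries were ranked by Pearson's r of log2 CPM among 11877 protein-coding genes that are no keratins. The 12 libraries fall into 4 groups, so r mostly reflects the group means and is given as a description. KRT18 was most like TFPI2, PLCE1 and PRSS23 (r = 0.998 for each), and KRT8 was most like CADM1 (r = 0.997), TPM3 and DNAJB1 (r = 0.996 for each). KRT7 was most like RRM2 (r = 0.994), TUBA4A (r = 0.987) and WDR34 (r = 0.985). KRT80 was most like TRIP6 (r = 0.991), SUSD2 (r = 0.989) and AMOTL2 (r = 0.986). KRT15 was most like SGSM1 (r = 0.995), NTNG2 (r = 0.993) and CASC4 (r = 0.987), and KRT16 most like MAPK11 (r = 0.993), ENO3 and TWSG1 (r = 0.992 for each). KRT10 was most like ZDHHC7 (r = 0.957), PABPN1 and PRMT2 (r = 0.947 for each). KRT19 was most like GTF3C3 (r = 0.901), CLCN5 (r = 0.896) and ACTRT3 (r = 0.887).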

How the data were processed

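The deposited values are raw counts per gene, which the authors made from poly-A mRNA reads (Illumina NovaSeq). Their methods name Hisat2, GRCh38 and featureCounts, whereas the processing notes name Bowtie2, HTSeq and hg38. Which made the table, the annotation release and the strand setting are not given in the sources used here.

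The counts of 12 libraries (17014188 to 20748677 each) went into edgeR 4.0.16 (R 4.3.3). The filterByExpr function (minimum count 10, minimum total 15) kept 17829 genes. After TMM scaling, the 4 group means were fitted by the quasi-likelihood test, checked on simulated data. Two-sided p-values took the Benjamini-Hochberg adjustment over these genes in each of 5 contrasts, without a fold threshold. SE came from the F statistic, and counting intervals are exact 95% binomial ones. A group with 3 counts or fewer in each library was at the floor.

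The members and lists were chosen with earlier results of these data known. All members and all other tested keratins were named. In the other lists, named genes had the lowest adjusted p in a direction, or a log2 change of 1 or more with mean log2 CPM of 1 or more. Some values outside this rule are also given, such as those of TP63 with suspension in control cells and JUP with GFI1 in floating cells. Alternatives were RLE, upper quartile and library size scaling, DESeq2 1.42.0, filters, robust empirical Bayes, the 2 groups compared alone, copies added, a replicate block, a 2-fold minimum and leaving out each library. Canonical lengths were chosen after seeing the data. The genes most like KRT81 are not reported here.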

Additional observations from a re-analysis of the deposited data

Results flagged for a closer look

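The following genes had suspension effects that differed between GFI1 and control cells by the interaction test. Values are the GFI1 minus the control suspension effect on the log2 scale, and groups of 3 libraries were not tested for outlying samples. Among the keratin genes these were KRT10 (0.83), KRT80 (0.61), KRT8 (0.38), KRT81 (-0.31) and KRT15 (-1.64), and KRT86 (-0.51) was added from the other keratins. KRT10 rose by 0.83 with suspension in GFI1 cells, with 0.00 in control cells (95% interval -0.16 to 0.17).

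Of the 18 junction genes tested, 2 had a positive and 5 a negative difference past the threshold: DSP (0.28), DST (0.27), JUP (-0.45), PPL (-0.49), EVPL (-0.49), ITGB4 (-0.70) and COL17A1 (-1.24). Of the 11 other filaments, 3 were positive and 1 negative: VIM (0.93), SYNM (0.26), LMNA (0.20) and NEFL (-0.84). Of the 12 factors, SOX9 (0.60) was positive and SOX2 (-0.72), TP63 (-0.997) and ELF3 (-0.26) were negative. Of the 6 genes of cornified and squamous differentiation, S100A2 was positive (1.10) and TGM3 negative (-1.32). The differences of KRT81 and KRT86 also missed the threshold with DESeq2 and robust empirical Bayes. Those of COL17A1, DSP, TGM3 and KRT86 each missed the threshold without single libraries: COL17A1 without attached GFI1 replicate 2 or 3, floating control replicate 3 or floating GFI1 replicate 1 or 2 (-1.05 to -1.21), DSP without attached control replicate 2, attached GFI1 replicate 1, floating control replicate 2 or floating GFI1 replicate 2 (0.181 to 0.264), KRT86 without attached control replicate 2 or floating control replicate 2 or 3 (-0.398 to -0.453), and TGM3 without attached control replicate 2 or 3, attached GFI1 replicate 3 or floating control replicate 2 (-1.08 to -1.28).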

How the results depend on the processing

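The numbers of keratin genes past the threshold stayed within 1.5 times of those reported under every alternative but one. A further minimum of 2-fold left 4 keratin genes for GFI1 in attached cells, 5 in floating cells, 2 for suspension in control cells, 1 in GFI1 cells and 1 for the interaction. It left 3247, 3078, 909, 500 and 241 of all genes in that order, against 11102, 10770, 7152, 5577 and 1919. Leaving out single libraries gave 6 to 8, 7 to 9, 6 to 7, 8 and 4 to 5 keratin genes in that order. Values that turned in sign had not passed the test. These were KRT80 for GFI1 in attached cells with library size only (0.0512), KRT10 for suspension in control cells with no low-count filter (-0.00521), with the replicate block (-0.00161) and leaving out attached control replicate 1 (-0.0166) or 3 (-0.018) or floating control replicate 3 (-0.0959, in a range over single libraries from there to 0.0689), and the interaction of KRT16 with copies added (-0.0662) and without attached control replicate 2 (-0.245) or floating control replicate 3 (-0.164), in a range up to 0.449. The cause was not tested. Library size scaling moved the median of all genes to 0.14 for GFI1 in either kind of cells, and KRT7 then changed by -0.08 and 0.00.

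No pairing by replicate number was visible: libraries with the same number had deviations from their group means with r from -0.0306 to 0.0311, and 0 of 18 pairs were over 0.1. Such values cannot show whether libraries with the same number were made together. With the number as a replicate block, 8, 8, 6, 8 and 5 keratin genes passed. KRT15, KRT16, KRT17 and KRT19 are limited by counts.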
